A study of Homo sapiens with 8 samples.

Results

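Open chromatin was examined at 4 loci of the NF-kB pathway, NFKB1, RELA, NFKBIA and TNFAIP3, in H1650, an established human non-small cell lung cancer line. ATAC-seq, which marks open chromatin by transposase insertion of adapters, had been applied to 8 libraries in 4 groups of 2. siMena11a cells received siRNAs matching exon 11a of ENAH, the gene of the actin regulator hMENA, and so aimed at its epithelial isoform hMENA11a. siMena cells received a pool against hMENA as a whole, siControl cells a non-targeting pool, each at 20 nmol/L with a lipid reagent, and untreated cells no siRNA. All groups are 1 cell line, no label says whether replicates were separate cultures, and the files hold no measure of the knockdown. The series asks how loss of hMENA11a bears on innate immune signalling in tumour cells.

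NF-kB is a family of dimeric transcription factors that drive inflammatory and survival genes. In resting cells its dimers are held in the cytoplasm by inhibitors of the IkB family, and signals from cytokine receptors and nucleic acid sensors such as RIG-I lead to destruction of the inhibitor and entry of the dimer into the nucleus. NFKB1 and RELA encode the partners of the classical dimer. NFKBIA encodes the inhibitor IkB alpha, and TNFAIP3 a ubiquitin-editing enzyme that damps signalling upstream of it. Both are textbook NF-kB targets and so close negative feedback loops.

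Members were found by position. The peaks of all 8 lists were merged wherever they overlapped or touched, which gave 46665 regions, and those overlapping a window around each gene were kept, whatever their values. There were 24: 4 in the NFKB1 window (hg19 chromosome 4 from 103390001 to 103570000), 4 in the RELA window (chromosome 11 from 65400001 to 65450000), 9 in the NFKBIA window (chromosome 14 from 35800001 to 35920000) and 7 in the TNFAIP3 window (chromosome 6 from 138050001 to 138250000). They are named here by locus and by a letter in order along the chromosome. The windows also reach beyond the genes. In the RefSeq gene order of GRCh38 the flanking protein-coding genes are SLC39A8 and MANBA for NFKB1, SIPA1 and KAT5 for RELA, PSMA6 and INSM2 for NFKBIA, and OLIG3 and PERP for TNFAIP3. No hg19 annotation was used, so regions are not assigned to promoters, introns or enhancers, nor to one of these genes.

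The promoters of 3 of the genes are shown because each holds a match to an NF-kB binding word, and NF-kB is known to act on these genes. In the RefSeq windows of 300 bases (250 before to 50 after the annotated start, GRCh38.p14, written in the direction of the gene), words of GGG, any pair of bases and then TTTCC or TTCCC were searched on both strands. Of 35116 such windows, 1364 (3.88%) held at least 1 match to either word. Capitals mark the matches, all of them to the word ending in TTTCC or its reverse complement, and no match overlaps another.
NFKB1, chr4:102501109-102501408, plus strand: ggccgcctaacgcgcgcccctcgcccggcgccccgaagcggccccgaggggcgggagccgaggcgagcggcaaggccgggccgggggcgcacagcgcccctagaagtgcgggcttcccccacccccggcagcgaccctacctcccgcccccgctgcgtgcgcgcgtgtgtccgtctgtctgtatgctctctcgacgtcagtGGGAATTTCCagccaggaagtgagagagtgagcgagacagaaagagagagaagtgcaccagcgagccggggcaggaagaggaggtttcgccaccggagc
NFKBIA, chr14:35404700-35404999, minus strand: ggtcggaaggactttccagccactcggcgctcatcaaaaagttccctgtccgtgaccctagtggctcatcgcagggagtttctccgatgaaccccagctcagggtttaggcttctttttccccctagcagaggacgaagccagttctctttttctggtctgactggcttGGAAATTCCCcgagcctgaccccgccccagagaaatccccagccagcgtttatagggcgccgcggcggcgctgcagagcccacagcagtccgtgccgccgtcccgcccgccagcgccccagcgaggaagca
TNFAIP3, chr6:137867009-137867308, plus strand: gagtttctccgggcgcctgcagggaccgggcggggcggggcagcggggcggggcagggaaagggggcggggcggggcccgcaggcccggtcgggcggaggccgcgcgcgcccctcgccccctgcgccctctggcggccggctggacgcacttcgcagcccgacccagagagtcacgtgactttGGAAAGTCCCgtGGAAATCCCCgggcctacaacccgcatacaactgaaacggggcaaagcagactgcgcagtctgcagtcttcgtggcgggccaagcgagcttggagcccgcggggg

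The match in the NFKB1 window begins 49 bases before the start and reads along the printed strand. That in the NFKBIA window begins 81 bases before it, and the pair in the TNFAIP3 window 67 and 55 bases before it, all on the opposite strand. Windows with 2 or more matches were 0.299% of all. Matches were counted on each strand, so a single site that reads the same on both strands counts there as 2. A second RefSeq start of NFKB1 and both starts of RELA had no match in their windows, which says only that these letters are absent there. The promoter coordinates are of another build than the peaks, so the matches were not placed within peaks.

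The measures are the authors' own. A region is listed in a library if its peak list, which ends at a q of 0.01, holds a peak there. The fold is the authors' ratio of tags at the summit to the local background, with 1 added to each, and is given for the strongest summit of a region. Folds describe enrichment within a library. They are set side by side between libraries with no test. Replicate 1 of siMena11a, siMena, siControl and untreated listed 35472, 14678, 27304 and 34782 peaks, and replicate 2 listed 2832, 1020, 5231 and 22424. The genome-wide background ran from 0.538 to 0.935 tags per position in replicate 1 and from 1.09 to 2.88 in replicate 2, so the short lists did not come with a low background. At the 542 regions listed in all 8 libraries siMena11a replicates had median folds of 10.5 and 5.61, siMena 8.99 and 4.57, siControl 10.5 and 6.68, and untreated 11.5 and 9.91. At the genome-wide background, the lowest fold listed in replicate 2 was 3.67 in siMena11a, 3.59 in siMena, 3.66 in siControl and 3.81 in untreated.

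The 24 regions were listed mainly in replicate 1 and in untreated replicate 2, and almost not at all in the replicate 2 lists of transfected cells. siMena11a replicate 1 listed 19 of the 24, against 74.6% of all regions, and replicate 2 listed 1, against 5.92%. siMena replicate 1 listed 7, against 30.2%, and replicate 2 none, against 2.14%. siControl replicate 1 listed 17, against 56.7%, and replicate 2 listed 1, against 10.9%. Untreated replicate 1 listed 15, against 72.4% of all regions, and replicate 2 listed 17, against 46.4%. As shares of the 24 these counts were 79.2% and 4.17% in siMena11a, 29.2% and 0% in siMena, 70.8% and 4.17% in siControl, and 62.5% and 70.8% in untreated. The members' share was above that of all regions in untreated replicate 2, where it was the farthest from it, and below it in untreated replicate 1.

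**Figure D1:**
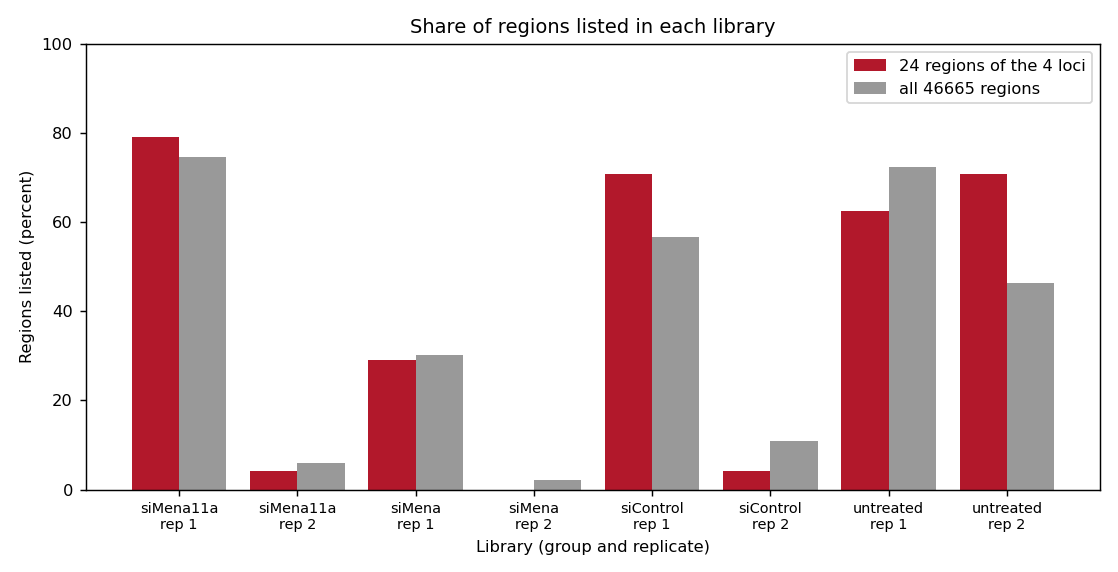
Percent of regions listed in each of the 8 libraries, red bars for the 24 regions of the 4 loci and grey bars for all 46665 regions. The red bars reach 62.5% and 70.8% in the untreated libraries, while in replicate 2 of the transfected groups they stand at 4.17% or 0%.

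Listing carried over between replicates in untreated cells and hardly in transfected ones, as it did for all regions. Of the 19 regions listed in siMena11a replicate 1, 1 was also in replicate 2, where 7.02% of all regions carried over. Of 7 in siMena replicate 1 none was in replicate 2 (4.88% of all), and of 17 in siControl replicate 1, 1 was (17.4% of all). Of 15 in untreated replicate 1, 13 were in replicate 2 (51.4% of all), which listed 4 more. Group means were 10.0 ± 12.7 regions in siMena11a, 3.5 ± 4.95 in siMena, 9.0 ± 11.3 in siControl and 16.0 ± 1.41 in untreated (SD, n = 2 each). In each transfected group the SD exceeded the group's own mean.

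No region of the 4 loci was listed in all 8 libraries or in 7. A single region was listed in 6, 5 in 5 and 7 in 4, so that 13 (54.2%) were listed in 4 or more, against 38.2% of all regions. The median width was 497 bp, from 200 to 1168 bp, against 394 bp over all regions. In each library with more than 1 of them, most listed members had a fold under the median of all regions in that library. Those above it were 8 of 19 in siMena11a replicate 1, 1 of 7 in siMena replicate 1, 5 of 17 in siControl replicate 1, 6 of 15 in untreated replicate 1 and 5 of 17 in untreated replicate 2.

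**Figure D2:**
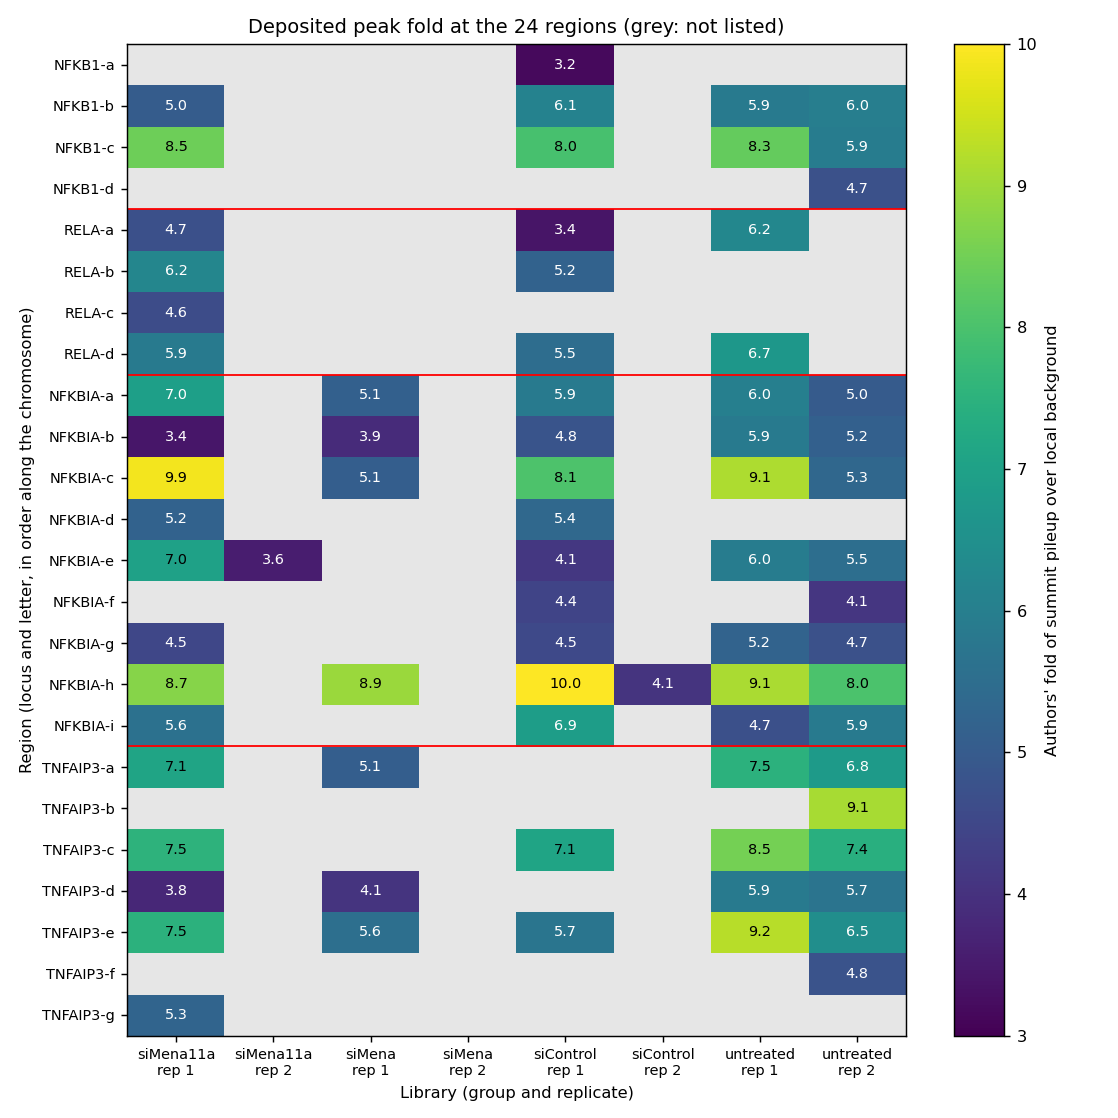
The authors' fold at each of the 24 regions (rows, grouped by locus) in each library (columns), with grey for regions not listed. NFKBIA-h fills 6 columns with folds from 4.06 to 10.0, and the RELA rows are empty outside replicate 1.

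NFKB1, which encodes a partner of the classical dimer, had 4 regions in its window of 180 kb, and 2 of them were listed in 4 libraries. NFKB1-b (chromosome 4 from 103422395 to 103423467, 1073 bp) had folds of 5.03 in siMena11a replicate 1, 6.12 in siControl replicate 1, and 5.86 and 6.00 in untreated replicates 1 and 2. These values lie close together. NFKB1-c (chromosome 4 from 103541791 to 103542356) had 8.47 in siMena11a replicate 1, 7.95 in siControl replicate 1, and 8.33 and 5.94 in untreated replicates 1 and 2. Here untreated replicate 2 was the low one. The strongest summits of NFKB1-c fell within 16 bp of each other in the 4 libraries, the closest of the 13 members listed in 4 or more, whose median spread was 110 bp, against 98 bp over all regions listed that often. Of the other 2, NFKB1-a, 25 bp from NFKB1-b, was listed in siControl replicate 1 with a fold of 3.17, and NFKB1-d in untreated replicate 2 with 4.74. Neither siMena library listed any NFKB1 region.

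RELA encodes the partner that carries the transactivation domain. Its 4 regions, within a window of 50 kb, were listed in replicate 1 libraries alone and in no siMena library. RELA-d (chromosome 11 from 65430258 to 65430853), the strongest, had folds of 5.88 in siMena11a, 5.51 in siControl and 6.70 in untreated cells. RELA-a, in the same 3 libraries, had 4.72 in siMena11a, 3.39 in siControl and 6.25 in untreated cells. RELA-b had 6.21 in siMena11a and 5.20 in siControl, and RELA-c was listed only in siMena11a, with 4.63. At RELA-a, untreated was highest and siControl lowest. Untreated replicate 2, which listed regions at the other loci, listed none here.

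NFKBIA, the gene of the inhibitor, had 9 regions in 120 kb, the most of the 4 loci, of which 7 were listed in 4 or more libraries and none in a single one. NFKBIA-h (chromosome 14 from 35859883 to 35860607, 725 bp) had folds of 8.73 in siMena11a replicate 1, 8.94 in siMena replicate 1, 10.0 and 4.06 in siControl replicates 1 and 2, and 9.12 and 8.03 in untreated replicates 1 and 2. It was the only region of the 4 loci listed in siControl replicate 2. That value was far under the other 5, which ran from 8.03 to 10.0. It rested on 18 tags at the summit over a local background of 3.68, while siControl replicate 1 had 37 tags over 2.80. Its summit lay at 35860524, elsewhere in the region than the other 5, which lay between 35860271 and 35860316. The siControl replicate 2 peak was 208 bp wide and did not reach those summits. In siMena replicate 1 the fold of NFKBIA-h was above 92.0% of the peaks in the list.

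Farther left in the window, 3 neighbouring regions were listed in all 4 replicate 1 libraries and in untreated replicate 2. NFKBIA-c (chromosome 14 from 35810801 to 35811268) had folds of 9.87 in siMena11a, 5.08 in siMena, 8.06 in siControl, and 9.13 and 5.33 in untreated replicates 1 and 2. The siMena value and untreated replicate 2 stood apart as low. NFKBIA-a (35801310 to 35801732) had 6.96 in siMena11a, 5.14 in siMena, 5.86 in siControl, and 6.03 and 5.00 in untreated. NFKBIA-b (35805728 to 35806288) had 3.42 in siMena11a, 3.86 in siMena, 4.81 in siControl, and 5.87 and 5.15 in untreated. At NFKBIA-b both untreated values were above the 3 transfected ones, while at NFKBIA-c siMena11a was the highest of all 5. NFKBIA-e (35834754 to 35835043) had 7.0 and 3.56 in siMena11a replicates 1 and 2, 4.14 in siControl replicate 1, and 5.95 and 5.52 in untreated. It was the only region of the 4 loci listed in siMena11a replicate 2, with 19 tags over a local background of 4.62.

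The remaining NFKBIA regions fall outside the naming rule, as do NFKB1-a, NFKB1-d, RELA-a to RELA-c and TNFAIP3-b, TNFAIP3-f and TNFAIP3-g, and are described for completeness after their values were seen. NFKBIA-i (35872956 to 35874123), the widest of the 24, had 5.61 in siMena11a replicate 1, 6.90 in siControl replicate 1, and 4.70 and 5.88 in untreated. NFKBIA-g had folds from 4.49 to 5.22 in the same 4 libraries. NFKBIA-d was listed in siMena11a and siControl replicate 1 at 5.21 and 5.37, and NFKBIA-f in siControl replicate 1 and untreated replicate 2 at 4.43 and 4.09.

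TNFAIP3, the gene of the ubiquitin-editing feedback enzyme, had 7 regions in 200 kb, of which 4 were listed in 4 or more libraries and 3 in 1. TNFAIP3-e (chromosome 6 from 138187749 to 138188700, 952 bp) had folds of 7.49 in siMena11a, 5.56 in siMena and 5.71 in siControl replicate 1, and 9.25 and 6.45 in untreated replicates 1 and 2. Untreated replicate 1 was highest, and siMena and siControl were close to each other. TNFAIP3-c (138132476 to 138132888) had 7.52 in siMena11a and 7.08 in siControl replicate 1, and 8.54 and 7.41 in untreated. TNFAIP3-a (138049805 to 138050330), which crosses the edge of the window, had 7.09 in siMena11a and 5.10 in siMena replicate 1, and 7.50 and 6.82 in untreated. TNFAIP3-d (138150567 to 138151106) had 3.77 in siMena11a and 4.06 in siMena replicate 1, and 5.85 and 5.69 in untreated. TNFAIP3-a and TNFAIP3-d were absent from both siControl lists. The rest were TNFAIP3-b at 9.09 and TNFAIP3-f at 4.79, both in untreated replicate 2, and TNFAIP3-g at 5.26 in siMena11a replicate 1.

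**Figure D3:**
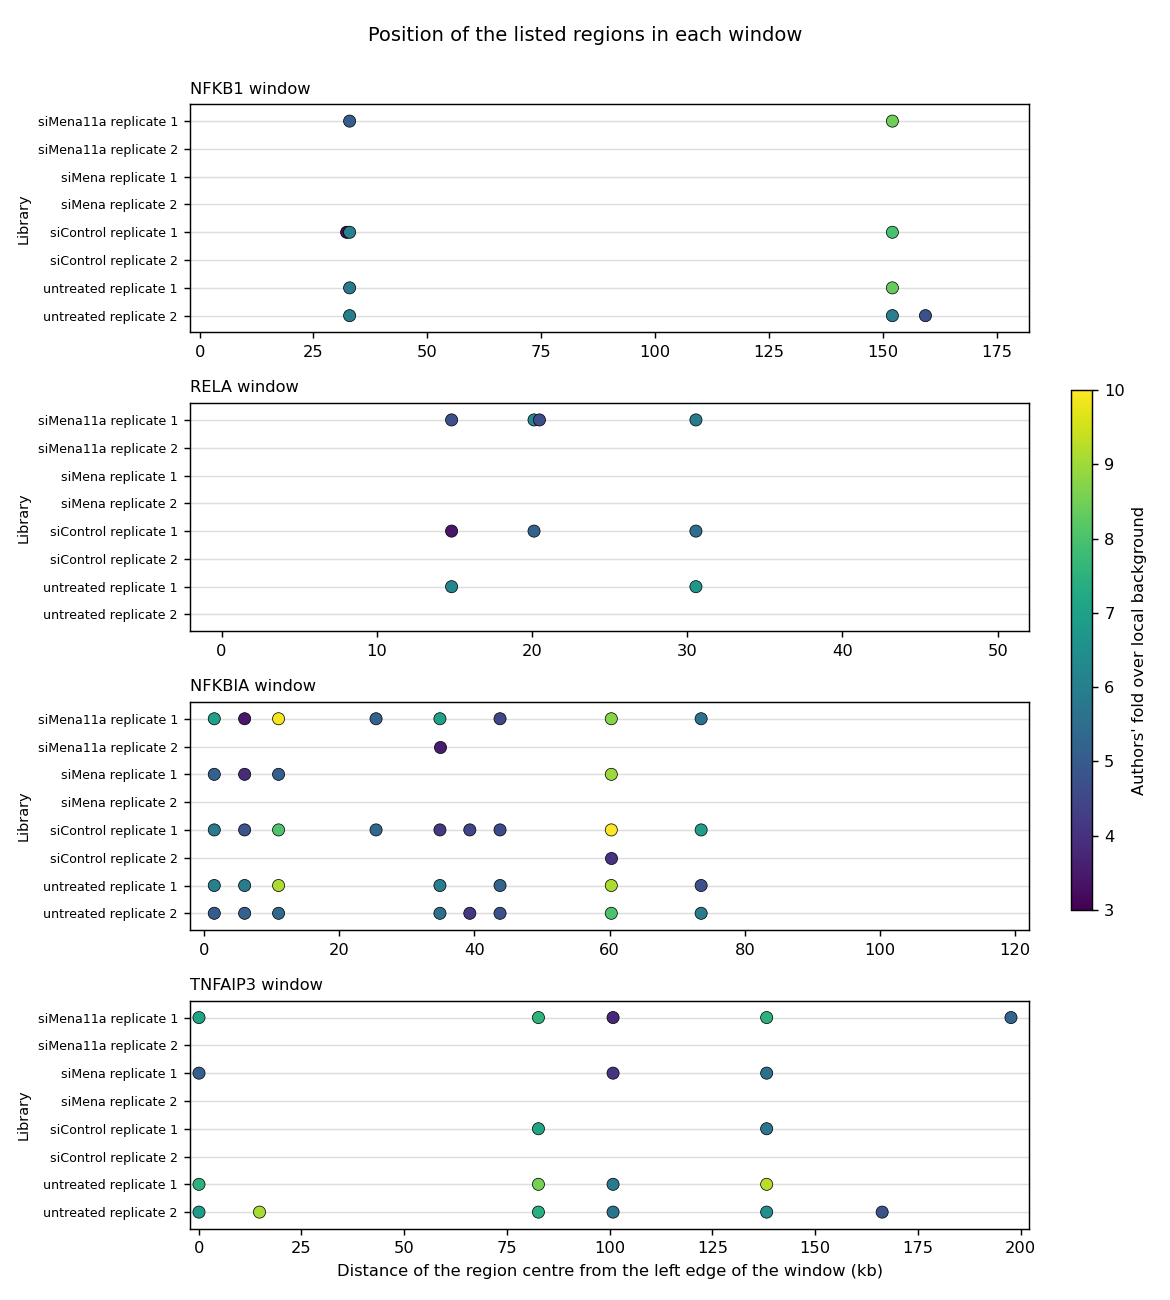
Centres of the listed regions by distance from the left edge of each window (kb), 1 row per library, coloured by the authors' fold. NFKBIA regions fill the left 74 kb of their window, and the first 3 centres lie within 11.03 kb of its edge, while the NFKB1 regions fall into 2 groups separated by 118323 bp.

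The first comparison sets cells with silenced hMENA11a against those given the control pool, and asks whether these loci open or close. A region was called gained if both siMena11a libraries listed it and no siControl library did, and lost in the opposite case. Of 21 regions listed in any of the 4 libraries, none was gained, where the share over all regions was 0.034%, and none was lost, where it was 0.068%. With 2 libraries against 2, an exact permutation test cannot give a two-sided p below 0.333, so no region has a test. Within replicate 1, 4 regions (RELA-c, TNFAIP3-a, TNFAIP3-d and TNFAIP3-g) were listed in siMena11a and not in siControl, and 2 (NFKB1-a and NFKBIA-f) the other way round, of 21 listed in either. Over all regions listed in either, 29.9% were only in siMena11a and 7.73% only in siControl, so the lean was general. With these 2 lists at equal length the members' counts were 1 and 5, of 18 listed in either, so their direction turned. The shares over all regions were then 18.1% and 16.4%. Within replicate 2, NFKBIA-e was listed only in siMena11a (8.63% of all regions in either) and NFKBIA-h only in siControl (50.2%).

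At the 15 regions listed in both replicate 1 libraries, the fold was higher in siMena11a at 9 and lower at 6, where 65.5% of all regions listed in both were higher. The log2 ratio ran from -0.49 to 0.76 with a median of 0.09, against a median of 0.13 and an SD of 0.34 over all regions. The extremes were both at NFKBIA, where NFKBIA-e had 7.0 in siMena11a and 4.14 in siControl, and NFKBIA-b had 3.42 in siMena11a and 4.81 in siControl. All 3 shared RELA regions and both shared TNFAIP3 regions were higher in siMena11a. The strongest summits lay apart at RELA-a (65414581 in siMena11a, 65414880 in siControl) and at RELA-d (65430669 and 65430422). Summit tags at RELA-d were 15 in siMena11a and 14 in siControl, and at TNFAIP3-c 16 and 15. NFKB1-c was higher in siMena11a, and NFKB1-b lower. These are single libraries, and the difference between them has no replicate check.

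The pool against all hMENA forms was set against the siControl libraries used above, so the 2 comparisons are not independent. Of 19 regions listed in any of the 4 libraries, none was gained (0.00359% of all regions) and none was lost (1.73%). Within replicate 1, TNFAIP3-a and TNFAIP3-d were listed in siMena and not in siControl, and 12 regions in siControl and not in siMena, among them all 3 RELA and all 3 NFKB1 regions of siControl, of 19 listed in either. Over all regions these shares were 3.09% only in siMena and 48.3% only in siControl. With lists of the same length the members' counts were 3 and 4, of 11 listed in either, and the shares over all regions 19.7% and 22.0%. Within replicate 2, NFKBIA-h was listed only in siControl (80.9% of all regions in either) and no member only in siMena (2.91%). At the 5 regions listed in both replicate 1 libraries, the fold was lower in siMena at each, where 19% of all regions were higher. The largest difference was at NFKBIA-c, with 5.08 in siMena and 8.06 in siControl, and the smallest at TNFAIP3-e, with 5.56 in siMena and 5.71 in siControl. With folds divided by each library's median at the 542 regions listed in all 8, 3 of the 5 were higher in siMena. The median log2 ratio was then 0.03 at these 5, and -0.06 over all regions listed in both libraries.

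siControl and untreated cells differ in having been transfected at all. Of 22 regions listed in any of these libraries, none was gained (0.137% of all regions) and 2, TNFAIP3-a and TNFAIP3-d, were lost (4.15% of all). Both were also listed in siMena11a and siMena replicate 1. There TNFAIP3-d rested on 7 and 6 tags, with a −log10 q of 2.37 and 2.27. Its fold of 4.06 in siMena replicate 1 was the lowest listed at the genome-wide background of that library. With the 4 lists cut to 5231 peaks each, neither TNFAIP3-a nor TNFAIP3-d was called. That cut left neither in untreated replicate 2, so no call was possible. Within replicate 1, siControl listed 4 regions that untreated lacked (NFKB1-a, RELA-b, NFKBIA-d and NFKBIA-f), and untreated listed these 2 that siControl lacked, of 19 listed in either. All regions ran the other way, with 8.73% only in siControl and 28.6% only in untreated. Lists of the same length gave the same members' counts, 4 and 2, and shares over all regions of 17.2% and 18.2%. These are counts of a few regions, and the difference from all regions was not tested. Within replicate 2, siControl listed none that untreated lacked (2.25% of all regions in either), and untreated listed 16 of 17 that siControl lacked (77.1%). With lists of the same length the members' counts were 0 and 1, of 2 listed in either, and the shares over all regions 28.0% and 29.9%.

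At 3 of the 13 regions listed in both replicate 1 libraries the fold was higher in siControl (26.9% of all regions). These were NFKB1-b, NFKBIA-h and NFKBIA-i. At NFKB1-b and NFKBIA-i the strongest summits of the 2 libraries differed. Of the shared summits of NFKB1-b, the left had 6.12 in siControl and 4.48 in untreated, and the right 4.79 and 5.86. At NFKBIA-i the left had 4.19 in siControl and 4.70 in untreated, and the right 6.90 and 4.62. The median log2 ratio at the 13 regions was -0.20, against -0.21 over all regions. The lowest ratio was at RELA-a, -0.88, and the next at TNFAIP3-e, with 5.71 in siControl and 9.25 in untreated. With folds divided by the library median, 5 of the 13 were higher in siControl. The median log2 ratio was then -0.07 at these 13, and -0.08 over all regions listed in both libraries. NFKBIA-h was the only member listed in all 4 libraries. Its folds of 10.0 and 4.06 in siControl enclosed those of 9.12 and 8.03 in untreated cells, so the groups overlapped. The fold of 4.06 came from a summit at 35860524, and the rest from summits between 35860271 and 35860300. The overlap thus does not compare the same summit. Between the untreated replicates themselves, the fold was lower in replicate 2 at 11 of the 13 regions listed in both, with log2 ratios from -0.78 to 0.32, and at 78.5% of all such regions.

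Cells with the isoform-directed siRNAs were finally set against those with the pool, from libraries already used above. Of 19 regions listed in any of their 4 libraries, 1, NFKBIA-e, was gained in siMena11a (0.314% of all regions), and none was lost (0.0084%). It was also listed in siControl replicate 1 and both untreated libraries. It was not called with lists of 1020 peaks each or at a −log10 q of at least 5. Neither setting keeps it in siMena11a replicate 2, where its −log10 q was 3.51, so no call was possible there. Within replicate 1, siMena11a listed 12 regions that siMena lacked and siMena none that siMena11a lacked, of 19 listed in either. Over all regions the shares were 60.1% only in siMena11a and 1.42% only in siMena, from lists of 35472 and 14678 peaks. With lists of the same length the members' counts were 2 and 3, of 9 listed in either, and the shares over all regions 22.4% and 19.6%. Within replicate 2, NFKBIA-e was listed only in siMena11a (66.2% of all regions in either) and no member only in siMena (6.18%). At the 7 regions listed in both replicate 1 libraries, the fold was higher in siMena11a at 4, where 88% of all regions were higher. The median log2 ratio was 0.43 at these 7, against 0.41 over all regions. With folds divided by the library median it was 0.20, against 0.18. NFKBIA-c had 9.87 in siMena11a and 5.08 in siMena, a log2 ratio of 0.96, and NFKBIA-b, NFKBIA-h and TNFAIP3-d were lower in siMena11a.

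**Figure D4:**
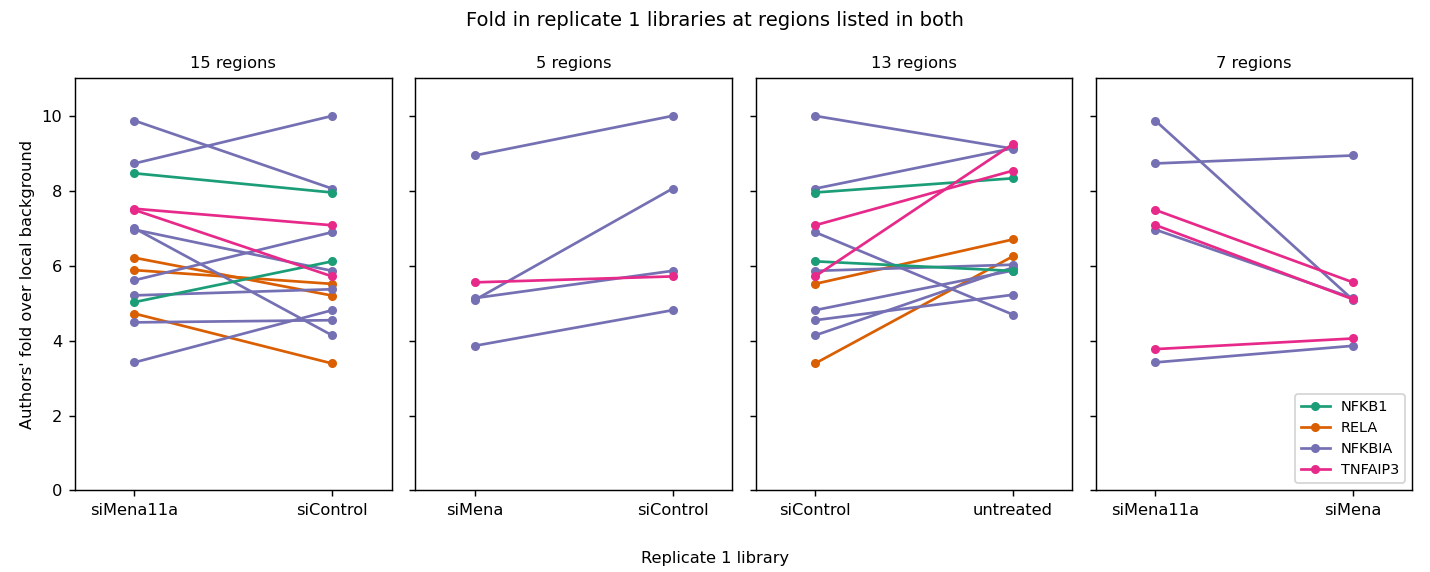
The authors' fold in the replicate 1 libraries at regions listed in both of a comparison, 1 line per region, coloured by locus. Each of the 5 siMena points lies below its siControl point, while 9 of 15 siMena11a points lie above theirs and 6 below.

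The 2 widest regions each held a pair of summits at nearly the same places in the same 4 lists. At NFKB1-b, one summit lay between 103422707 and 103422751 and the other between 103423056 and 103423103. The left summit was the stronger in siMena11a and siControl replicate 1, with 17 and 22 tags against 16 and 17 at the right one. The right summit was the stronger in untreated replicates 1 and 2, with 16 and 20 tags against 12 and 17 at the left one. At NFKBIA-i, the left summit lay between 35873229 and 35873292 and the right one between 35873912 and 35873957. There the right summit was the stronger in siMena11a and siControl replicate 1, with 32 and 27 tags against 29 and 17, and the left one in untreated replicates 1 and 2, with 16 and 25 tags against 15 and 19. In 2 of the 8 pairs the difference is 1 tag, and untreated replicate 1 had a further summit in NFKB1-b. Among all 1892 regions of at least 1000 bp listed in these 4 libraries, 28 (1.48%) had strongest summits within 100 bp inside each pair and at least 300 bp apart between the pairs. These limits were set after the values were seen, and the pattern was not tested. The 28 include NFKB1-b and NFKBIA-i themselves, and the 1892 were not limited to regions with a pair of summits. TNFAIP3-e was split into 3 summits in siMena11a replicate 1, with folds of 4.15, 7.27 and 7.49, while siMena and siControl replicate 1 and both untreated libraries had 1 summit each.

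**Figure D5:**
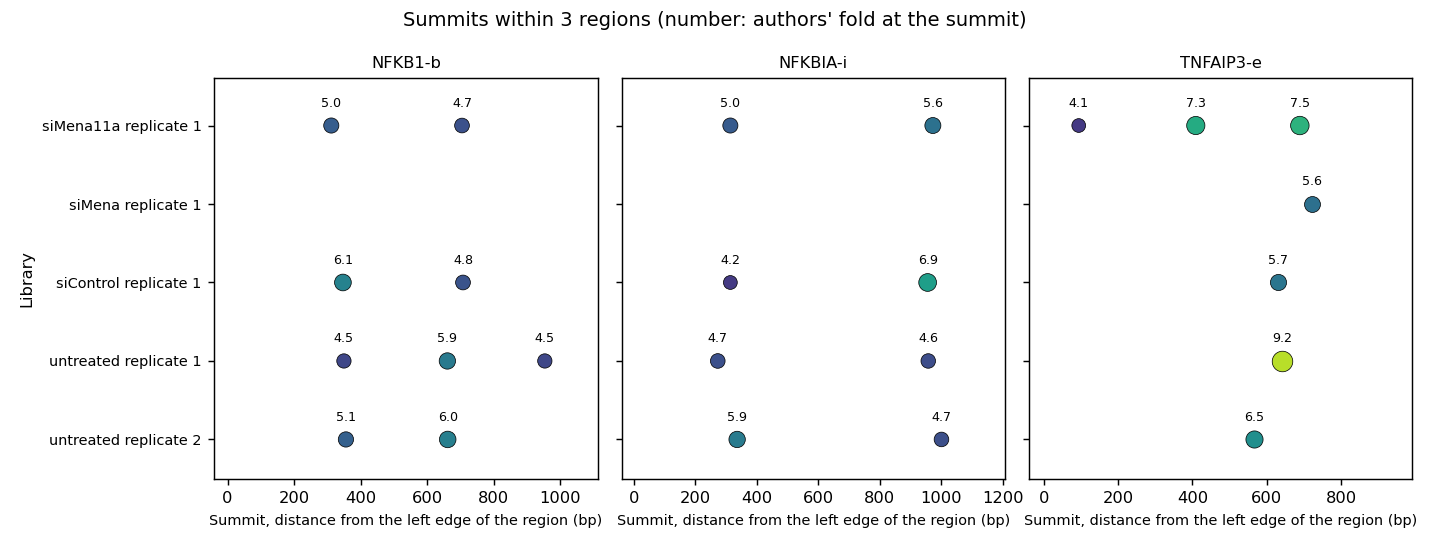
Summits within NFKB1-b, NFKBIA-i and TNFAIP3-e by distance from the left edge of the region (bp), 1 row per library, with the authors' fold printed above each summit. The first 2 regions show 2 columns of summits shared by the 4 libraries that list them, and TNFAIP3-e shows 3 summits in siMena11a replicate 1 and 1 in each of the other 4.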

How the data were processed

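Each of the 8 libraries came as 1 deposited list of peaks. FastQC 0.11.5, Bowtie2 2.3.4.2, SAMtools 1.7, MACS2 2.2.5 and hg19 are named in the submitters' processing notes. Trimming, duplicate removal and the transposase shift are not given in the sources used here. Each row is 1 summit. The score deposited by the authors is 10 times the −log10 q, rounded down. The fold deposited by the authors is a ratio with 1 added to both terms, which lowers folds where background is low in tags, and the −log10 p and −log10 q are the authors' values.

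Rows of 1 interval were joined into 1 peak, and peaks of all lists that overlapped or touched into regions, listed in a library when a peak overlapped by 1 bp. Tags at summits and local backgrounds were recovered from fold and −log10 p by the Poisson formula, within 0.001 of the deposited value for 100% of rows. The floor of the local backgrounds is the genome-wide background. Code was tested on simulated data. Alternatives were shortened lists, a −log10 q of at least 5, peaks covering 50% of a region, regions merged from the 4 lists alone, left-out libraries, counts within a replicate number and windows widened by 50 kb.

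Members, the naming rule and lists were chosen with earlier results of these data known. Regions named at each locus were up to 5 listed in the most libraries (at least 4), the one with the highest fold and every region gained or lost. The 14 other pathway genes planned were not analysed here, as no hg19 annotation was used. p-values would measure only the spread between libraries, which may be technical, and none is given. Tools were SciPy 1.17.1 and pandas 2.3.3 under Python 3.11.15, with figures from matplotlib 3.10.9.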

Additional observations from a re-analysis of the deposited data

How the results depend on the processing

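Listing depends on list length and on replicate 2, which limits every count here. With the replicate number as a block, that is within replicate numbers 1 and 2, siMena11a against siControl gave 4 and 1 gained and 2 and 1 lost regions, siMena against siControl 2 and 0 gained and 12 and 1 lost, siControl against untreated 4 and 0 gained and 2 and 16 lost, and siMena11a against siMena 12 and 1 gained and 0 lost in both. The mean difference within same-numbered pairs equals the unpaired one. With both lists also held to the same length, an alternative chosen after seeing the data, the counts were 1 and 1 gained and 5 and 0 lost, then 3 and 0 gained and 4 and 0 lost, then 4 and 0 gained and 2 and 1 lost, and last 2 and 0 gained and 3 and 0 lost. With all 4 lists of equal length, the 2 regions lost with siControl against untreated became 0, and the 1 gained with siMena11a against siMena 0. Both calls needed a replicate 2 list from which the cut removed these regions. The gained count of siMena11a against siMena was also 0 at a −log10 q of at least 5. At that threshold 4 regions were lost with siControl against untreated, as with peaks covering 50% of a region. Other gained and lost counts stayed within 1.5 times under these settings and with regions merged from the 4 lists.

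Leaving out each library in turn gave 0 to 4 gained and 0 to 2 lost for siMena11a against siControl, 0 to 2 and 0 to 12 for siMena against siControl, 0 to 3 and 2 to 12 for siControl against untreated, and 1 to 12 and 0 to 0 for siMena11a against siMena. The highest gained counts came without replicate 2 of siMena11a (4 and 12), siMena (2) or siControl (3). The highest lost counts came without siControl replicate 2 (2 against siMena11a, 12 against siMena) or siControl replicate 1 (12 against untreated), and without untreated replicate 1 the last was 5. The difference in listed regions was 1 for siMena11a minus siControl (-8 to 10 with a library left out), -5.5 for siMena minus siControl (-13.5 to 2.5), -7 for siControl minus untreated (-15 to 1) and 6.5 for siMena11a minus siMena (-2.5 to 15.5), so each changed sign. With the 4 lists cut to the length of the shortest (2832, 1020, 5231 and 1020 peaks), these differences became 0.5, 0.0, 0.0 and 0.0. At 1020 peaks no replicate 2 list of the siMena comparisons held a member. Little difference could remain after such cuts, so these values decide nothing about the full lists. With windows widened by 50 kb, 37 regions were found and 48.6% were listed in 4 or more libraries.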

Other observations

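TNFAIP3-b (chromosome 6 from 138064672 to 138064931) was listed in untreated replicate 2 alone, with 21 tags over a local background of 1.42. Its fold of 9.09 was above 88.1% of the peaks in that list. It was also above that of 99.0% of the 14570 regions listed in a single library, which come from libraries with unlike folds.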
